A study of Mus musculus with 6 samples.

Results

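The genes described here are Trp53, which encodes the transcription factor p53, its direct regulators, and known p53 target genes for growth arrest, stress metabolism, DNA repair and death signalling. Targets of the Bcl2 family were left out of the list. The list was named gene by gene, by known function and not by a threshold on these values, but with earlier results of these data known. It holds 35 of the 43430 genes counted. Of these 35, 32 had a row in the authors' deposited table of normalised counts, which has 16448 rows, and 31 of the 13039 genes that passed the low-count filter were on the list. The 4 that did not pass are given at the end of the sections on stress metabolism and death signalling.

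RNA was sequenced from CD4+CD8+ double-positive thymocytes, sorted by flow cytometry from the thymus of C57BL/6 mice, as 3 KO libraries and 3 WT libraries. The KO mice carried loxP-flanked Mettl14 (Mettl14fl/fl) and a CD4-Cre transgene, and the WT libraries came from their littermates. The labels do not state the Cre status or floxed alleles of those littermates, nor the age or sex of any mouse. CD4-Cre acts when the CD4 promoter turns on, at the double-positive stage itself, so that deletion in these cells is recent and can be incomplete. Mettl14 is the RNA-binding partner of Mettl3 in the enzyme complex that writes N6-methyladenosine (m6A) on RNA. The series asks whether loss of this mark acts on thymocytes through p53.

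p53 is held low in resting cells by Mdm2, which marks it for destruction, and by Mdm4, which blocks its activation domain. DNA damage and other stresses release p53 from both, mostly by changes to the protein and not to the Trp53 transcript, so the level of Trp53 RNA does not measure p53 activity. In double-positive thymocytes, which rearrange their T cell receptor alpha genes and mostly die unselected, p53 can stop the cell cycle through Cdkn1a and start death through its death-inducing targets.

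Counts in genes ranged from 29500254 to 33377056 per library. Levels are TMM-scaled CPM (a gene's count scaled to a fixed library total) and differences are log2 fold changes of KO over WT from edgeR's quasi-likelihood test, with standard errors (SE). The labels do not say whether each library is a separate mouse, so the p-values cover only the variation from library to library, part of which can be technical. Mettl14 had 42.2, 40.3 and 36.4 CPM in the KO libraries, against 52.1, 58.8 and 55.8 CPM in the WT libraries. The KO libraries were all lower, with a log2 fold change of -0.49 (edgeR unadjusted p = 0.000496, adjusted p = 0.289; called by DESeq2). Summed double-positive markers ranged from 13912 to 14773 CPM in KO and from 13183 to 14948 CPM in WT libraries. WT replicate 1 stood apart. Its 8 immediate early genes, which respond within minutes to stimulation and to handling, summed to 678 CPM, against 157 to 196 CPM in the other 5 libraries.

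Among the 31 tested genes, none had an edgeR adjusted p under 0.05. The background was 0.0383% of all genes, or 5 genes in all, and limma-voom also called none of the 31. DESeq2 on group alone called none of them either, against 0.681% of all genes, and with a block that sets replicate 3 apart it called 1, Btg2. At an unadjusted p under 0.05, 5 of the 31 genes (16.1%) differed, against 6.72% of all genes tested. Of those 5, Cdkn1a, Ccng1, Btg2 and Sesn2 were higher in KO, where the background was 3.41%. The fifth, Plk3, was lower in KO, where the background was 3.31%. DESeq2 and limma-voom also gave 5 genes each at this level. The KO and WT libraries did not overlap for 8 of the 31 (25.8%), against 12.6% of all genes. All KO libraries were above all WT libraries for 6 of the 31, Cdkn1a, Ccng1, Sesn2, Btg2, Trp53inp1 and Phlda3, against 6.59% of all genes. They were below for 2, Plk3 and Tigar, against 5.97% of all genes. The median log2 fold change of the 31 genes was 0.04, against 0.00 over all genes, and 18 of the 31 (58.1%) had a positive value, against 48.9% of all genes. The difference was within 0.1 log2 units of 0 for 14 of the 31 and within 0.25 for 23.

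**Figure D1:**
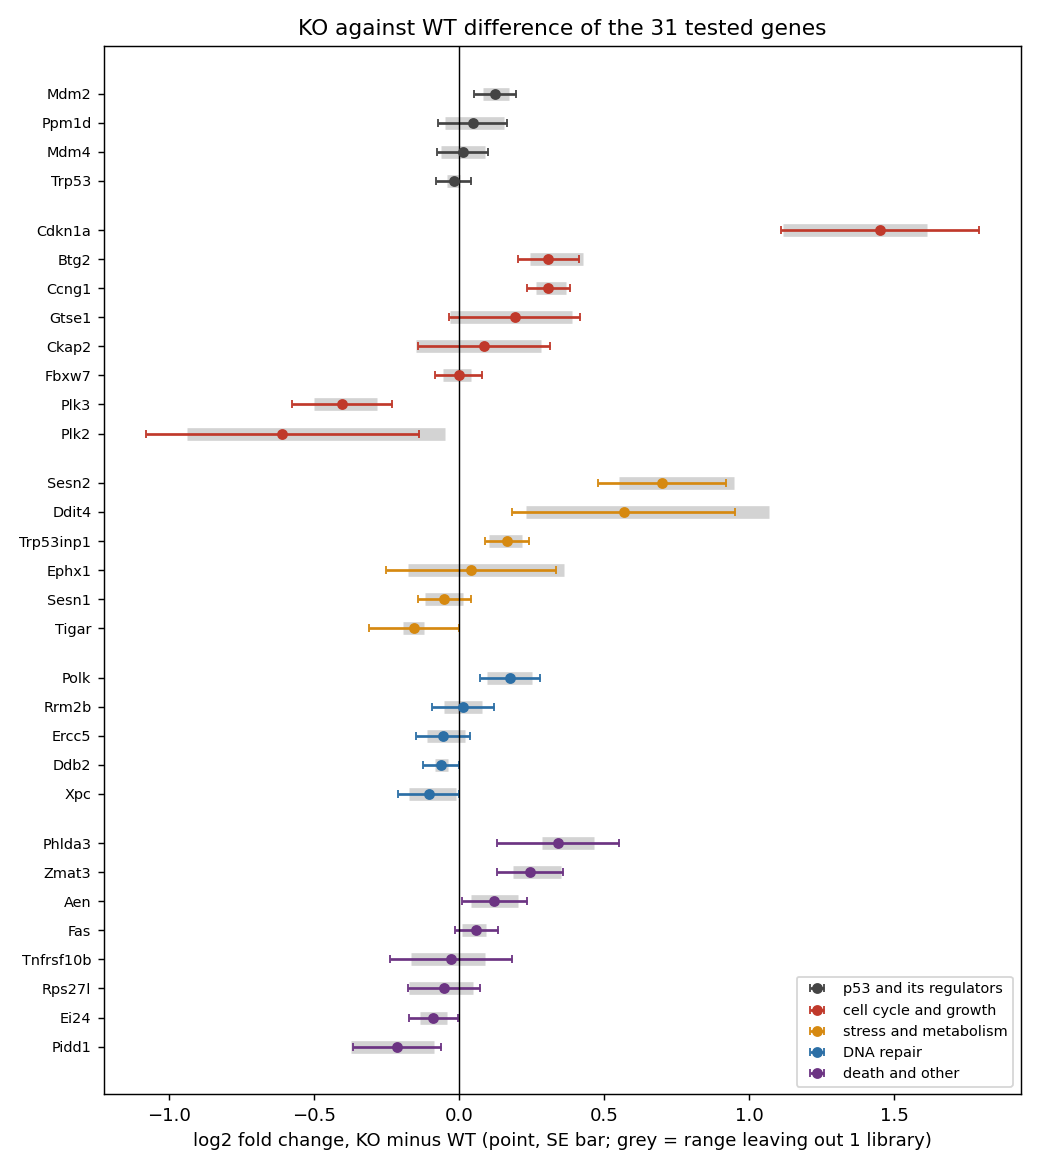
Log2 fold change of KO over WT for each of the 31 tested genes, grouped by role, with the SE from edgeR as the bar and the range over fits that each leave out 1 library in grey. Cdkn1a lies far to the right at 1.45, while the values for p53 and its regulators and for the repair genes lie between -0.10 and 0.18.

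The genes were ordered by level per kb of exon, averaged over the 6 libraries, to see which p53 targets these cells transcribe most. Btg2, an antiproliferative gene that helps shorten poly(A) tails, led with 286 ± 22.3 CPM per kb in KO and 231 ± 30.2 CPM per kb in WT libraries (SD, n = 3 each). Trp53inp1, a nuclear protein that promotes p53 phosphorylation and autophagy, came next at 155 CPM per kb, and Ddit4, an inhibitor of mTORC1 signalling, followed at 98.1 CPM per kb. Fas, Mdm4, Trp53 and Mdm2 came behind these at 45.6, 43.9, 38.6 and 36.8 CPM per kb. Over the 6 libraries Btg2 stood clear of Trp53inp1, but the ranges of Trp53inp1 and Ddit4, Ddit4 and Fas, Fas and Mdm4, Mdm4 and Trp53, and Trp53 and Mdm2 overlapped, so those neighbours are not separated in this order. The canonical arrest gene Cdkn1a was at place 30 of 31, with 0.346 CPM per kb, above Plk2 at 0.172 CPM per kb. These 31 levels therefore spanned more than 3 powers of 10, and the gene with the largest difference between KO and WT was nearly the least abundant. Exon lengths were taken from GENCODE M21, because the deposited length of 2 genes, among them Pidd1, exceeded the span of the gene. Of the 35 genes, 21 had the same start and end in M21 as in the deposited counts. For some genes M21 gave more exon bases than the deposited length, as for Plk2 (4491 against 2802) and Tnfrsf10b (5451 against 3171). The levels per kb of such genes can be understated.

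**Figure D2:**
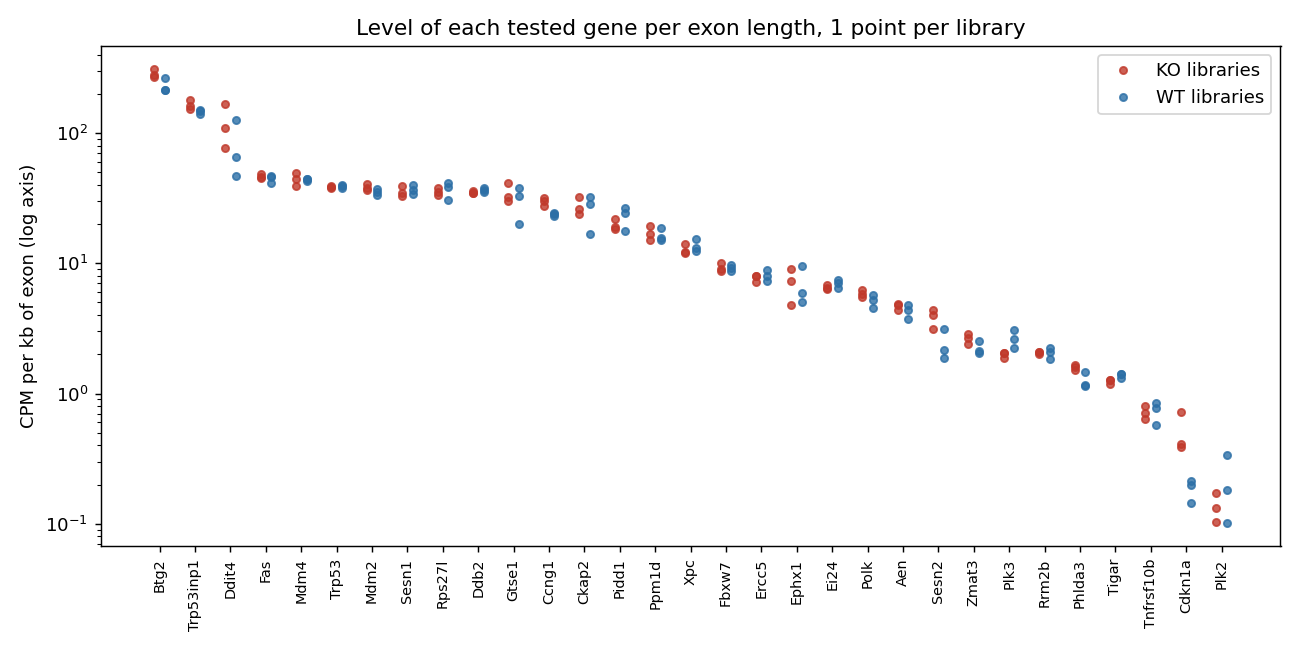
Level of each of the 31 tested genes in CPM per kb of exon on a log axis, with 1 point per library, KO libraries to the left of WT libraries within each gene. Btg2 has the highest level and Plk2 the lowest, and Cdkn1a is the gene in which the KO and WT points lie farthest apart without overlap.

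Trp53 itself (mm10 chromosome 11, 69580359 to 69591873) had 156, 153 and 157 CPM in the KO libraries, against 153, 158 and 161 CPM in the WT libraries. The groups overlapped, and the log2 fold change was -0.02 with an SE of 0.06 (edgeR unadjusted p = 0.767). Of all 31 genes it had the smallest SE. Mdm2, the ubiquitin ligase that is both a repressor and a target of p53, had 206, 186 and 193 CPM in the KO libraries, against 179, 169 and 189 CPM in the WT libraries. Here too the groups overlapped, since the lowest KO value was under the highest WT value. The difference was 0.12 with an SE of 0.07 (edgeR unadjusted p = 0.127). Mdm4, whose protein binds p53 without marking it for destruction, had 650, 727 and 583 CPM in the KO libraries, against 660, 628 and 653 CPM in the WT libraries. The KO libraries lay on both sides of the WT libraries, with a difference of 0.01 and an SE of 0.09. Ppm1d, the phosphatase that removes activating phosphates from p53, averaged 53.9 ± 6.74 CPM in KO and 52.2 ± 6.17 CPM in WT libraries (SD, n = 3 each). None of these 4 genes therefore differed at an unadjusted p under 0.05.

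Cdkn1a encodes p21, the inhibitor of cyclin-dependent kinases through which p53 halts the cell cycle. It lies on mm10 chromosome 17, 29090979 to 29100722, plus strand. Its counts were 77, 41 and 47 in the KO libraries, against 24, 17 and 22 in the WT libraries. These counts gave 2.55, 1.39 and 1.46 CPM in the KO libraries, against 0.70, 0.51 and 0.75 CPM in the WT libraries. All KO libraries lay above all WT libraries, and KO replicate 1 was highest. The log2 fold change was 1.45 with an SE of 0.34 (edgeR unadjusted p = 0.00289, adjusted p = 0.488). It was the largest difference among the 31 genes and ranged from 1.12 to 1.61 when 1 library was left out, the lowest without KO replicate 1. In the authors' deposited table the log2 fold change was 1.46 with an adjusted p of 0.126.

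The stretch of the Cdkn1a promoter that carries p53 half-sites is shown because it is the only promoter among these genes that held a full p53 element, defined here as 2 half-sites with 0 to 13 bases between them, on either strand. The sequence is from RefSeq on GRCm38.p6, chr17:29090729-29090978, plus strand, and ends at the base before the annotated start. The capitals mark the 2 half-sites that match the pattern exactly. The stretch directly after the second of them, tgacatgttc, departs from the pattern only at its first base. It was left in lower case because the search took exact matches alone.

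Cdkn1a promoter: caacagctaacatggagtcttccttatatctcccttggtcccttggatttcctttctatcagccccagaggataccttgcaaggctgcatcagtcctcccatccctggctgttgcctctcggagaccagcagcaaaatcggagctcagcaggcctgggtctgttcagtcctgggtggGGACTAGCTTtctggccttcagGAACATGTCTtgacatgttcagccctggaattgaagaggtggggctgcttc

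A full element of this kind was found in 24 of 32851 mouse promoters (0.0731%). The window searched began 250 bases before each start and ran a short way past it, beyond the stretch shown. Of the 35 genes, 28 had at least 1 promoter in the RefSeq table, 41 promoters in all. At least 1 half-site was present in 31.7% of these 41 promoters, against 8.36% of all promoters. Those promoters belonged to 12 genes, Aen, Ccng1, Cdkn1a, Ckap2, Ei24, Gtse1, Mdm2, Polk, Ppm1d, Rps27l, Sesn1 and Trp53. The Gtse1 half-site lay past the start. Of the 4 genes higher in KO at an unadjusted p under 0.05, Cdkn1a and Ccng1 had a half-site in this window, and Sesn2 and Btg2 did not. A match describes these letters alone, and p53 binding was not measured. Sequence outside this window and sites with a mismatch were not searched, so an absence here does not say that a gene lacks a p53 site.

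Cdkn1a was the only one of the tested genes on chromosome 17, where 12.6% of 707 tested genes had an unadjusted p under 0.05, against 6.38% of genes on all other chromosomes. Within 500000 bases of Cdkn1a, 14 genes were tested. Among them Rab44, a Rab family GTPase, was higher in KO by 0.99 (edgeR unadjusted p = 0.00593), and Cpne5, a copine, was lower by 1.46 on the log2 scale (edgeR unadjusted p = 0.0111). The neighbouring Srsf3 had a log2 fold change of 0.04. Whether linked sequence on chromosome 17 differed between the KO and WT mice was not tested.

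Some markers of other cell types were higher on average in the KO libraries, as Cdkn1a was, and others were not. The 6 innate and gamma-delta lymphocyte markers summed to 5.60 to 7.31 CPM in KO libraries and to 2.17 to 2.82 CPM in WT libraries, without overlap. All 4 that were tested, Tcrg-C1, Tcrg-C2, Nkg7 and Fcer1g, were higher in KO at an edgeR unadjusted p under 0.05, with log2 fold changes of 1.45, 1.53, 1.30 and 0.85. By DESeq2 on group alone and by limma-voom, 2 of the 4 reached that level, Tcrg-C1 and Tcrg-C2. The groups overlapped for Nkg7, with KO replicate 1 at 0.265 CPM and the WT libraries at 0.293, 0.394 and 0.239 CPM (limma-voom unadjusted p = 0.116). Klrb1c and Klrd1 had under 10 counts in every library and were not tested. The 6 B cell markers summed to 797 to 844 CPM in KO and to 796 to 845 CPM in WT libraries, most of it from Ighm, the mu heavy chain, whose log2 fold change was -0.03. Cd79a, at 1.66, was higher at an unadjusted p under 0.05, and Cd79b was at 0.14. Pax5 had 0, 9 and 5 counts in the KO libraries, against 0, 1 and 0 in the WT libraries, and was not tested. The 8 myeloid and dendritic markers summed to 90.2 to 117 CPM in KO and to 86.7 to 91.9 CPM in WT libraries, most of it from Cst3 and Itgam. Of the 6 tested, the antigen presentation genes Cd74 at 1.48 and H2-Ab1 at 0.48 were higher at an unadjusted p under 0.05. H2-Eb1, Lyz2, Cst3 and Itgam did not reach that level, with log2 fold changes of 1.65, 1.47, 0.14 and -0.24. Cd74 had 2.42, 18.7 and 10.5 CPM in the KO libraries, against 2.69, 5.15 and 3.52 CPM in the WT libraries (limma-voom unadjusted p = 0.181). KO replicate 1, the highest library for Cdkn1a, was the lowest of the 6 for Cd74. In that same library Tcrg-C1 and Tcrg-C2 were at 2.45 and 2.25 CPM. The highest WT values of these 2 genes were 1.15 and 1.02 CPM. The 8 stromal and epithelial markers summed to 149 to 160 CPM in KO and to 153 to 180 CPM in WT libraries, most of it from the endothelial gene Pecam1, at -0.08. Of the 3 tested, the epithelial gene Epcam was higher, by 0.56, at 3.68 to 5.18 CPM in the KO libraries, against 2.39 to 3.54 CPM in the WT libraries, without overlap and with an unadjusted p under 0.05. Krt5 and Pdgfra were at 0 in all 6 libraries, and the 5 red cell markers summed to at most 0.606 CPM in any library. None of these markers had an edgeR adjusted p under 0.05, while DESeq2 on group alone called 2 of them, Tcrg-C1 and Tcrg-C2. The part of such cells in the Cdkn1a difference was not tested. In bulk RNA, a change in the number of cells of a type and a change in RNA per cell cannot be told apart.

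**Figure D3:**
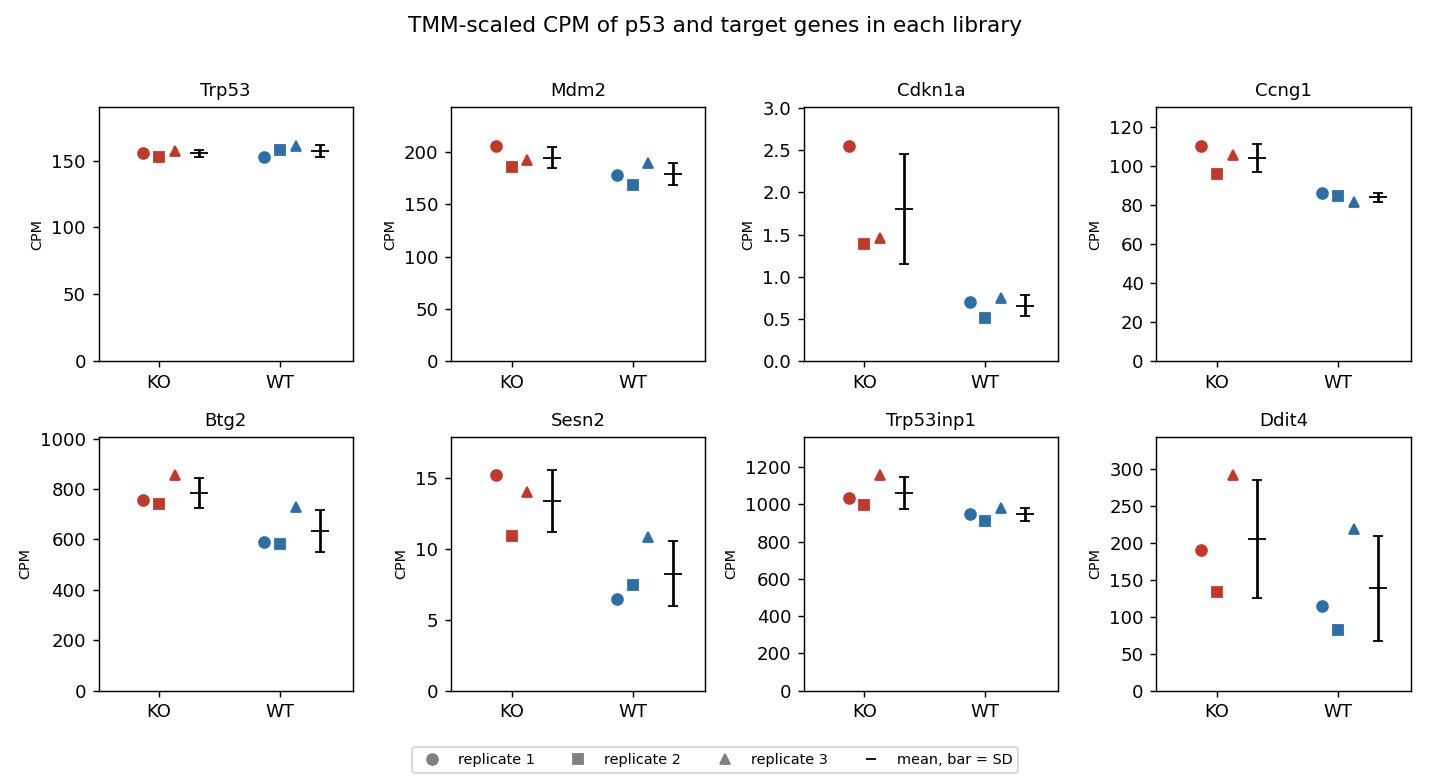
CPM of p53 and 7 regulators or targets in each library, KO left of WT, with the marker shape giving the replicate number and the black mark and bar the mean and SD of 3 libraries. Trp53 and Mdm2 overlap between groups, Cdkn1a, Ccng1, Btg2, Sesn2 and Trp53inp1 do not, and Ddit4 is highest in replicate 3 of both groups.

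Ccng1 encodes cyclin G1, which recruits a phosphatase to Mdm2 and is induced by p53. It had 110, 96.1 and 105 CPM in the KO libraries, against 86.0, 84.4 and 81.4 CPM in the WT libraries. The lowest KO library lay above the highest WT library. The log2 fold change was 0.31 with an SE of 0.07 (edgeR unadjusted p = 0.00328, adjusted p = 0.488), and it ranged from 0.27 to 0.37 when 1 library was left out. The authors' deposited table gave 0.32 with an adjusted p of 0.0958. The Ccng1 promoter held 1 half-site, shown in capitals. The stretch is from RefSeq on GRCm38.p6, chr11:40755287-40755536, minus strand.

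Ccng1 promoter: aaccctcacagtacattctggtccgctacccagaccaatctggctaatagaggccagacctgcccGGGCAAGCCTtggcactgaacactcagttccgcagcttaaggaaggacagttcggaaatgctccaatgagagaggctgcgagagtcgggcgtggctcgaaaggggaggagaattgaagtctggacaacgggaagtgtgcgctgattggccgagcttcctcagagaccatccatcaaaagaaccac

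Btg2 was the gene of the 35 with an adjusted p under 0.05 in the authors' deposited table, where the log2 fold change was 0.32 and the adjusted p 0.00431, against a background of 0.762% of genes. It had 757, 742 and 855 CPM in the KO libraries, against 590, 581 and 729 CPM in the WT libraries. Replicate 3 was the highest library of each group, and the lowest KO library, at 742 CPM, lay just above the highest WT library. In the edgeR fit, which has no block, the difference was 0.31 with an SE of 0.11 (edgeR unadjusted p = 0.0192, adjusted p = 0.695). It did not reach an unadjusted p under 0.05 without KO replicate 3 (0.25, edgeR unadjusted p = 0.0691) or without WT replicate 2 (0.25, edgeR unadjusted p = 0.0716). Its promoter held the full cyclic AMP response element TGACGTCA, which is its own reverse complement and was present in 1.79% of all promoters. Among the listed genes Plk2 and Ppm1d also had it. The stretch below is from RefSeq on GRCm38.p6, chr1:134079156-134079405, minus strand, with that element in capitals.

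Btg2 promoter: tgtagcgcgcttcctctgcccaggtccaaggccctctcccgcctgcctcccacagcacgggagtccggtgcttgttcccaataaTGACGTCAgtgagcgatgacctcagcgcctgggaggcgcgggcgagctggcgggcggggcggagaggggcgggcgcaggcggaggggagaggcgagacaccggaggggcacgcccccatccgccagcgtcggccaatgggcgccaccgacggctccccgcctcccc

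The remaining arrest genes were lower in KO or overlapped. Plk3, a polo-like kinase that responds to DNA damage and stress, had 4.77, 5.22 and 5.21 CPM in the KO libraries, against 7.78, 6.60 and 5.70 CPM in the WT libraries. Every KO value was under every WT value, with WT replicate 1 highest, and the log2 fold change was -0.40 with an SE of 0.17 (edgeR unadjusted p = 0.0481, adjusted p = 0.733). Without WT replicate 1 the difference was -0.28 (edgeR unadjusted p = 0.161), and of the fits that each left out 1 library, the one without WT replicate 3 alone kept the unadjusted p under 0.05. Plk2, a related kinase that is itself an early response gene, had 0.597, 0.779 and 0.465 CPM in the KO libraries, against 1.52, 0.454 and 0.820 CPM in the WT libraries. WT replicate 1 was again the highest, and without it the log2 fold change was -0.05 in place of -0.61. That library also had the highest sum of immediate early genes, and the part of that state in the values of Plk2 and Plk3 was not tested.

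Gtse1, a protein of G2 phase that carries p53 out of the nucleus, and Ckap2, a spindle protein, are made in dividing cells. Gtse1 had 114, 82.5 and 88.2 CPM in the KO libraries, against 55.1, 90.0 and 104 CPM in the WT libraries. Ckap2 had 103, 77.2 and 83.8 CPM in the KO libraries, against 53.7, 91.3 and 104 CPM in the WT libraries. For both genes WT replicate 1 was lowest, and KO replicate 1 and WT replicate 3 were the 2 highest. The 14 cell cycle genes that p21 represses through the retinoblastoma pathway summed to 6343, 4602 and 5639 CPM in the KO libraries, against 3180, 5866 and 6806 CPM in the WT libraries, with the same library lowest. The part of the cell cycle state in the values of Gtse1 and Ckap2 was not tested. Without WT replicate 1, the log2 fold change was -0.03 for Gtse1, against 0.19 with all libraries, and -0.15 for Ckap2, against 0.09. None of the 14 cell cycle genes had an unadjusted p under 0.05 by edgeR, DESeq2 or limma-voom, against 6.72% of all genes by edgeR. Of the 14, 10 (71.4%) had a positive log2 fold change, against 48.9% of all genes, with a median of 0.06. That count and median include WT replicate 1, the lowest library of the sum, and are not given here without it. Fbxw7, the substrate receptor that sends cyclin E and Myc to destruction, averaged 65.2 ± 4.77 CPM in KO and 65.2 ± 3.67 CPM in WT libraries (SD, n = 3 each).

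**Figure D4:**
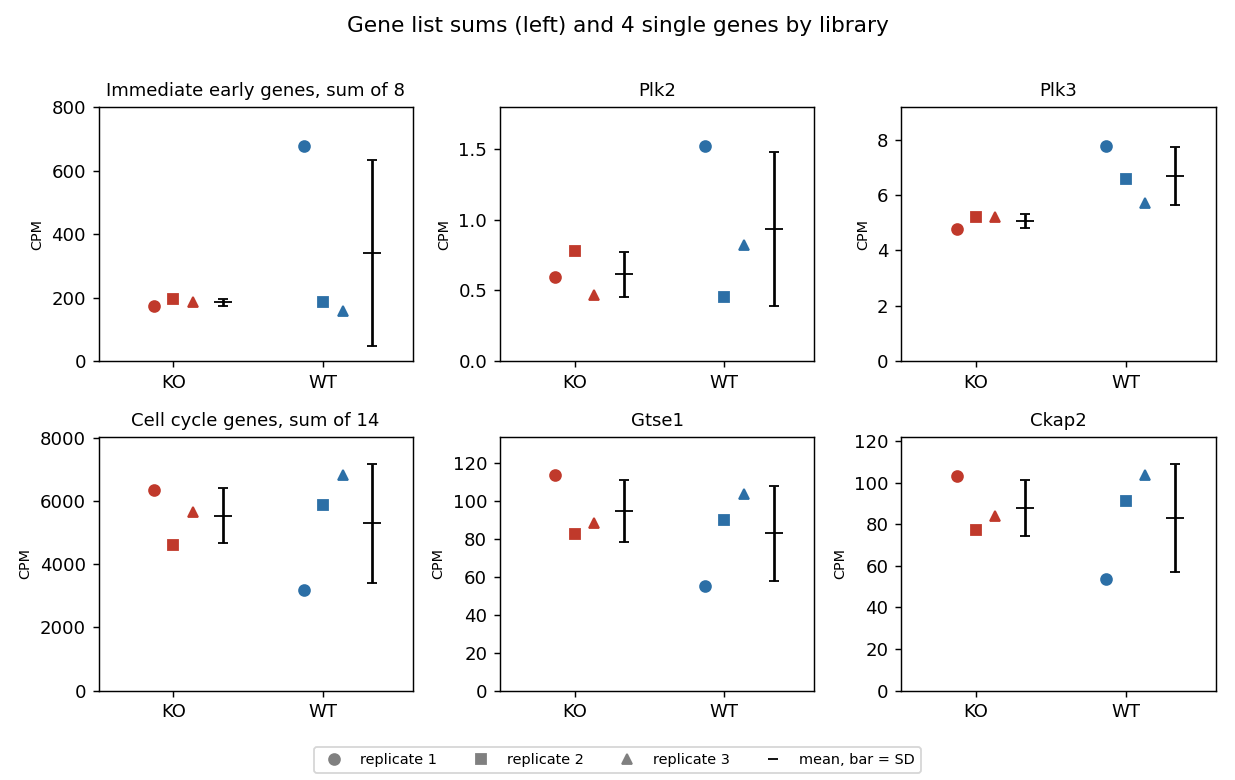
Summed CPM of 8 immediate early genes and of 14 cell cycle genes (left) beside single genes, in each library, KO left of WT, with marker shape giving the replicate number and the black mark and bar the mean and SD of 3 libraries. WT replicate 1 (circle) is highest in the immediate early sum, Plk2 and Plk3, and lowest in the cell cycle sum, Gtse1 and Ckap2.

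Among the genes of stress metabolism, Sesn2 had the largest difference. It encodes sestrin 2, a leucine sensor that restrains mTORC1 and is induced by p53 and by the integrated stress response. It had 15.2, 10.9 and 14.0 CPM in the KO libraries, against 6.50, 7.45 and 10.8 CPM in the WT libraries. All KO libraries lay above all WT libraries, although KO replicate 2 and WT replicate 3 were close together. The log2 fold change was 0.70 with an SE of 0.22 (edgeR unadjusted p = 0.0135, adjusted p = 0.661). It ranged from 0.55 to 0.95 when 1 library was left out, and the authors' deposited table gave 0.73 with an adjusted p of 0.0677. Its relative Sesn1, also a p53 target, averaged 141 ± 12.5 CPM in KO and 146 ± 11.4 CPM in WT libraries (SD, n = 3 each), with overlap. Sesn1 thus stood well above Sesn2 in level per kb and did not show its difference, with a log2 fold change of -0.05 and an SE of 0.09.

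Trp53inp1 had 1035, 994 and 1156 CPM in the KO libraries, against 948, 910 and 980 CPM in the WT libraries. The groups did not overlap, and the log2 fold change was 0.17 with an SE of 0.08 (edgeR unadjusted p = 0.0618). Ddit4 had 191, 134 and 292 CPM in the KO libraries, against 115, 82.1 and 219 CPM in the WT libraries. The groups overlapped, because replicate 3 was highest and replicate 2 lowest in both, and each KO library was above the WT library of the same number. The authors named their deposited fit as paired, but no label says which libraries form a pair. The log2 fold change was 0.57 with an SE of 0.38 (edgeR unadjusted p = 0.178), and it ranged from 0.23 to 1.07 when 1 library was left out. With the block that sets replicate 3 apart, the difference was 0.62 with an edgeR unadjusted p of 0.0106 and an adjusted p of 0.540, so the block brought Ddit4 under 0.05 before adjustment. The authors' deposited table gave 0.63 for Ddit4, with an unadjusted p of 0.00069 and an adjusted p of 0.0697.

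Tigar, a fructose bisphosphatase that slows glycolysis, had 4.64, 4.67 and 4.34 CPM in the KO libraries, against 4.80, 5.21 and 5.19 CPM in the WT libraries. All KO libraries were lower, by 0.15 on the log2 scale with an SE of 0.16 (edgeR unadjusted p = 0.351). Ephx1, an epoxide hydrolase, averaged 13.7 ± 4.14 CPM in KO and 13.3 ± 4.62 CPM in WT libraries (SD, n = 3 each). Gdf15, a secreted stress cytokine, had 1, 0 and 0 counts in the KO libraries, against 1, 0 and 1 in the WT libraries. Ak1, the cytosolic adenylate kinase, had 0 counts in every library. Neither gene was tested, and at such counts no difference was detectable.

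The 5 repair genes all overlapped between groups, and none had an unadjusted p under 0.05. Polk, a translesion DNA polymerase, had the largest value among them, 0.18 with an SE of 0.10, and averaged 32.4 ± 2.01 CPM in KO and 28.7 ± 3.12 CPM in WT libraries (SD, n = 3 each). Xpc and Ddb2, which recognise damage for nucleotide excision repair, had log2 fold changes of -0.10 and -0.06, and Ercc5, the endonuclease of that pathway, had -0.05. Rrm2b, the p53-inducible ribonucleotide reductase subunit, averaged 18.9 ± 0.44 CPM in KO and 18.7 ± 1.78 CPM in WT libraries (SD, n = 3 each). For Ddb2, 23.8% of exon bases are shared with Acp2 on the opposite strand, and Rrm2b has a processed pseudogene, Gm8616, that matches it at 96.1% over 1051 bases. Reads that match Rrm2b and Gm8616 equally well cannot be assigned to either, whatever the strand setting of the counting. That setting is not given in the sources used here, so reads from the bases that Ddb2 shares with Acp2 cannot be assigned with certainty. The same holds for smaller overlaps on the opposite strand, of 7.68% of exon bases in Cdkn1a, 8.04% in Rrm2b and 6.66% in Ei24.

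Of the death-signalling and other effector genes, 8 were tested and none had an unadjusted p under 0.05. Fas, the death receptor, had the highest level of them per kb of exon. Its levels were 99.5, 95.3 and 93.0 CPM in the KO libraries, against 96.3, 85.3 and 94.3 CPM in the WT libraries, with a log2 fold change of 0.06. Tnfrsf10b, the TRAIL receptor, averaged 3.92 ± 0.43 CPM in KO and 3.99 ± 0.76 CPM in WT libraries (SD, n = 3 each). Phlda3, an inhibitor of Akt, had 2.35, 2.57 and 2.51 CPM in the KO libraries, against 1.81, 2.27 and 1.78 CPM in the WT libraries. It was the gene of this group whose libraries did not overlap, with a log2 fold change of 0.34 and an SE of 0.21 (edgeR unadjusted p = 0.143). Zmat3, an RNA-binding regulator of splicing, had a log2 fold change of 0.25 with an SE of 0.11 (edgeR unadjusted p = 0.0627).

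Aen, a nuclease that acts in apoptosis, had a log2 fold change of 0.12, Ei24, a protein of the endoplasmic reticulum, -0.09, and Rps27l, a ribosomal protein paralog, -0.05. Pidd1, the scaffold that activates caspase 2, had 99.0, 86.1 and 83.4 CPM in the KO libraries, against 79.8, 121 and 110 CPM in the WT libraries. WT replicate 1 was the lowest of the 6, so that the log2 fold change was -0.21 with all libraries (edgeR unadjusted p = 0.199) and -0.37 without that library (edgeR unadjusted p = 0.00401). Eda2r, the receptor for ectodysplasin A2, had 1, 0 and 0 counts in the KO libraries, against 0 in each WT library. Perp, a membrane protein of desmosomes, had 1, 2 and 1 counts in the KO libraries, against 3, 2 and 3 in the WT libraries, and neither was tested.

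The rest of the pathway was counted from wider lists. Of 25 tested upstream genes (damage sensors, kinases and modifiers of p53), 1 (4%) had an unadjusted p under 0.05, the acetyltransferase gene Ep300, which is below the background of 6.72% of all genes. It had 311, 282 and 281 CPM in the KO libraries, against 244, 238 and 276 CPM in the WT libraries, without overlap. Its log2 fold change was 0.21 (edgeR unadjusted p = 0.0325). Of 24 further p53 targets tested, 2 (8.33%) were higher at this level, against 3.41% of all genes, and none was lower. They were Cd82, a tetraspanin, at 0.26, and Pltp, a phospholipid transfer protein, at 1.49 on 11 counts in each KO library, against 2, 5 and 5 in the WT libraries. DESeq2 and limma-voom also gave 2 each, but not the same genes. The groups overlapped for Cd82 (limma-voom unadjusted p = 0.0527), and Pltp had a DESeq2 unadjusted p of 0.0700. Polh reached the level by DESeq2 and limma-voom (unadjusted p = 0.0247 and 0.0446) but not by edgeR (unadjusted p = 0.0583). The median log2 fold change was 0.05 for the upstream genes and 0.12 for the further targets.

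For the 4 Bcl2 family targets, all values were positive, and 2 had an unadjusted p under 0.05. Bbc3, which encodes PUMA, had 33.2, 31.6 and 26.8 CPM in the KO libraries, against 25.9, 24.8 and 19.0 CPM in the WT libraries, a log2 fold change of 0.39 (edgeR unadjusted p = 0.0239). Pmaip1, which encodes NOXA, had a log2 fold change of 0.72 (edgeR unadjusted p = 0.0116). Neither had an adjusted p under 0.05 by edgeR. In the authors' deposited table, which carries the block, Bbc3 was called with an adjusted p of 0.0265, and Pmaip1 had 0.0624. The background for a higher level in KO at an unadjusted p was 3.41% of genes, as above.

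Since Mettl14 is part of the m6A writer, the transcripts were searched for GGACT, the most common form of the m6A motif, on the RNA strand. The 31 tested genes had a median of 1.12 matches per kb of transcript, against 1.05 over 11268 tested coding genes. In the 3′ UTR the medians were 0.642 and 0.695 per kb. The 4 genes higher in KO at an unadjusted p under 0.05 each had a match in the 3′ UTR, which 57.8% of all these genes also had. The first such site of each is shown with 11 bases on either side, the motif in capitals, to place it in its transcript. Positions are from GENCODE M21 on mm10.

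Cdkn1a, chr17:29099838-29099864, plus strand: aaaaatgagtaGGACTttggggtctcc
Ccng1, chr11:40750399-40750425, minus strand: acctgggtgatGGACTtacaaagtaat
Sesn2, chr4:132493638-132493664, minus strand: cctctgtgcaaGGACTtctgtgtctgg
Btg2, chr1:134076153-134076179, minus strand: tgtgcactgcaGGACTacctggtattc

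Trp53, Plk3 and Rps27l had no GGACT in the transcript searched. Methylation of these sites was not measured here, and a match in sequence does not say that the site carries the mark.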

How the data were processed

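RNA was sequenced from 3 KO and 3 WT libraries of sorted double-positive thymocytes, with TruSeq kits per the labels' protocols. Trimmomatic 0.33, STAR 2.5.2, HTSeq and DESeq2 on mm10 are named in the submitters' processing notes, and the strand setting is not given in the sources used here. The authors deposited raw counts per gene and a normalised signal, which is each count divided by a size factor per library. The authors also deposited log2 fold changes with standard errors and p-values of their own DESeq2 fit, which were copied and not tested again. Rerunning DESeq2 with a block that sets replicate 3 apart gave all 16448 of their fold changes to within 0.001, and a block on replicate number gave 4169. The authors named that fit as paired, but what the block stands for is not known. The rows for reads outside any gene (12.3% to 15.2% of reads in the count files) were kept out of library sizes.

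The raw counts were fitted with edgeR 4.0.16 in R 4.3.3 (TMM, filterByExpr, group alone, two-sided quasi-likelihood test, Benjamini-Hochberg over all genes tested, threshold 0.05). SEs were derived from the log2 fold change and its F statistic. Every pair of replicates differed beyond counting noise (chi-square over its degrees of freedom at least 17.3). The fits were tested on simulated data with known fold changes. DESeq2 1.42.0, limma-voom (limma 3.58.1), other scalings, no filter, blocks and leaving out each library were alternatives. blastn 2.17.0 looked for near copies (at least 95% identity over 20% of the transcript).

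Full values were given for Trp53, Mdm2, Mdm4, Cdkn1a, genes with an unadjusted p under 0.05, those called by the authors and those whose groups do not overlap. Values of Ddit4, Plk2, Gtse1, Ckap2, Pidd1, Fas and the untested genes were added after they were seen. The genes, lists and rule were chosen with earlier results of these data known. The value of 1 marker gene is not reported here.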

Additional observations from a re-analysis of the deposited data

How the results depend on the processing

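The number of the 31 genes called was 0 in every edgeR fit, in DESeq2 on group alone and in limma-voom. It was 1 (Btg2) in DESeq2 with replicate 3 set apart, an alternative chosen after seeing the data, in which 6 were higher and 0 lower at an unadjusted p under 0.05. The number higher in KO at an unadjusted p under 0.05, 4 in the fit as reported, was 5 with a replicate block, 6 with replicate 3 set apart, 5 with no low-count filter and 3 to 6 when 1 library was left out. The number of all genes under 0.05, in either direction, moved as well. It was 876 of 13039 as reported, 794 with a replicate block, 996 with replicate 3 set apart and 1529 of 21846 with no filter. Without WT replicate 2, the fit that gave 3, it was 542 of 13234. Without WT replicate 3, which gave 6, it was 1715 of 13425. With replicate 3 set apart, the edgeR fit added Ddit4 and Trp53inp1 and lost Plk3. The number lower, 1 as reported, was 0 with no low-count filter, 0 with a replicate block, 0 with replicate 3 set apart and 0 to 1 when 1 library was left out. The median log2 fold change, 0.042 as reported, was 0.018 with upper-quartile scaling and 0.014 (without WT replicate 1) to 0.065 when 1 library was left out. Upper-quartile scaling moved the median of all genes to -0.027. The sign of 12 of the 31 differences changed under at least 1 alternative, and the largest of these as reported was 0.19, for Gtse1. The labels name no litter, day or batch, so the replicate numbers were not taken to pair the libraries. Deviations of same-numbered libraries correlated at -0.15, 0.08 and 0.19. With 3 libraries per group, such values cannot show whether a pairing exists. Trp53inp1 reached an unadjusted p under 0.05 with no low-count filter, with replicate 3 set apart and without KO replicate 2. Depth limits Cdkn1a, Plk2 and the untested genes most, which rest on the fewest counts.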
